A study of Mus musculus with 9 samples.

Results

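The subcortical maternal complex is a protein assembly of the mammalian egg, described here through the transcripts of 6 genes that encode its proteins: Nlrp5, Ooep, Tle6, Khdc3, Zbed3 and Padi6. They were chosen by name, with earlier results of these data known, and all 6 had a row among the 24228 usable gene rows of the deposited expression table. All 6 were also among the 10801 genes tested. Fully grown oocytes at the germinal vesicle stage, arrested in meiotic prophase, were compared in 3 groups of 3 libraries. In MG oocytes Mtor, the kinase of a growth pathway, was deleted with Gdf9-Cre, whose promoter acts from early in oocyte growth. In MZ oocytes the same gene was deleted with Zp3-Cre, whose promoter acts later in growth. WT oocytes were wild type, and the labels do not say whether WT mice carried a floxed allele or a Cre. All mice were C57BL/6 females, and 46 h before collection each had received 5 IU of PMSG to stimulate the growth of follicles. The sample labels give an age of 6 months and the series design gives 23 days, and the sources used here do not settle this. Nothing in the labels says that the libraries of a group came from separate animals, nor how many oocytes a library holds. The p-values here therefore rest on the variation among libraries alone, part of which may be technical.

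The complex forms under the egg's cell membrane while the oocyte grows and persists through the first cleavages. NLRP5 (MATER), OOEP (FLOPED) and TLE6 form its core, KHDC3 (FILIA) joins through NLRP5, and ZBED3 and PADI6 are associated proteins. In mice, eggs that lack Nlrp5, Ooep, Tle6 or Padi6 give embryos that arrest early in cleavage, which makes these classical maternal-effect genes. Their transcripts are made and stored during oocyte growth, before transcription ceases in the fully grown oocyte.

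Sequence just before the transcription start is shown for 3 of the genes, since Zbed3 had the highest level by far, and Nlrp5 and Ooep had log2 fold changes of opposite sign between MG and MZ. The sequences are the 250 bases before each start in RefSeq (GRCm38.p6), 5′ to 3′ on the strand of the gene. Capitals mark the letters CANNTG, the E-box recognised by factors such as FIGLA, and TAATTA or TAATTG, recognised by oocyte homeodomain factors such as NOBOX. Zbed3 is on the plus strand at chr13:95323355-95323604, Nlrp5 on the plus strand at chr7:23385639-23385888, and Ooep on the minus strand at chr9:78378589-78378838.
Zbed3: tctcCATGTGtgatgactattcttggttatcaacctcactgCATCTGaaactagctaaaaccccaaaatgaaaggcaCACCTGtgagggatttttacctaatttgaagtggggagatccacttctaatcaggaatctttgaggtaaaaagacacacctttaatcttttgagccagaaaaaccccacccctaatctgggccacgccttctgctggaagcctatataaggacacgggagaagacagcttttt
Nlrp5: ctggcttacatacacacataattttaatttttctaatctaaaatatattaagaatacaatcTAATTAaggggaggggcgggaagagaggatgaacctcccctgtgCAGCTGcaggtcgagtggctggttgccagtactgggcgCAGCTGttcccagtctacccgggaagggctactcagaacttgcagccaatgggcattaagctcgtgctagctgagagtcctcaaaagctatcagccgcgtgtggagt
Ooep: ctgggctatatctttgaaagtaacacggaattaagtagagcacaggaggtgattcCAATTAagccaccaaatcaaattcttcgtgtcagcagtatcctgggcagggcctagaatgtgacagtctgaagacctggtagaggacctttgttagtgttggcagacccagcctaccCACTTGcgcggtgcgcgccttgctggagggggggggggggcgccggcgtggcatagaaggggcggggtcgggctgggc
On both strands, the Zbed3 window held CANNTG 3 times, the Nlrp5 window 2 times and the Ooep window 1 time. The Nlrp5 window also held TAATTA, and the Ooep window held TAATTG, which reads CAATTA on the printed strand. All 6 genes had CANNTG, which is in 66.2% of 32851 such RefSeq windows. TAATTA or TAATTG was in 2 of the 6, against 11.3% of all windows, and TATAAA in 0 of the 6, against 12.4%. Only the exact letters TATAAA were counted, so variants were not, such as the tatataag near the end of the Zbed3 window. No CANNTG match overlapped a TAATTA or TAATTG match, 2 CANNTG matches in the Khdc3 window overlapped each other, and a match describes letters in the window only.

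Levels are FPKM, fragments scaled for transcript length and library size, which can be compared between genes because they are per length. In bulk RNA of this kind fewer oocytes and less RNA per oocyte cannot be told apart, and values scaled to library size show neither. Estimated depth was 468000 to 835000 fragments in MG libraries, 465000 to 727000 in MZ libraries and 476000 to 539000 in WT libraries. The FPKM of all genes summed to 428329 to 554305 in MG, 657851 to 677618 in MZ and 584503 to 718684 in WT libraries, with the lowest sum in MG 3. These sums do not measure the amount of RNA, and MG 3 also had the highest estimated depth. Mtor itself had 5.25, 6.00 and 4.64 FPKM in MG, 6.55, 4.67 and 4.39 in MZ, and 3.25, 3.33 and 2.95 in WT libraries. A whole-gene FPKM does not check a deletion of some exons, so MG and MZ stand for the libraries so labelled. Summed over 12 oocyte markers the FPKM was 22160 to 41040 in MG, 45530 to 48170 in MZ and 39300 to 46820 in WT libraries. Summed over 16 granulosa and cumulus markers it was 23.4 to 40.8 in MG, 24.0 to 28.2 in MZ and 22.1 to 34.9 in WT libraries, with Foxl2 and Amhr2 at 0 in all 9. Cyp19a1 was the highest of the 16, with means of 13.06 FPKM in MG, 14.65 in MZ and 22.6 in WT. Of the 7 tested, 2 (Kitl and Nr5a2) were higher and 0 lower in all MG than in all WT libraries. That compares with 21.5% of all genes in either direction. The low MG 3 sum of oocyte markers moves with the low values of 5 of the 6 genes in that library, all but Nlrp5, and the part of that sum in the results was not tested.

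In no comparison did any of the 6 genes pass limma's moderated test on log2(FPKM + 1) with Benjamini-Hochberg adjustment over all 10801 genes. The pattern with the widest separation lay between the 2 deletions: Ooep, Tle6 and Zbed3 were lower in all 3 MG libraries than in any MZ library, while Nlrp5 was higher in all 3. Khdc3 had nearly equal means in the groups. The levels are given gene by gene, core genes first.

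**Figure D1:**
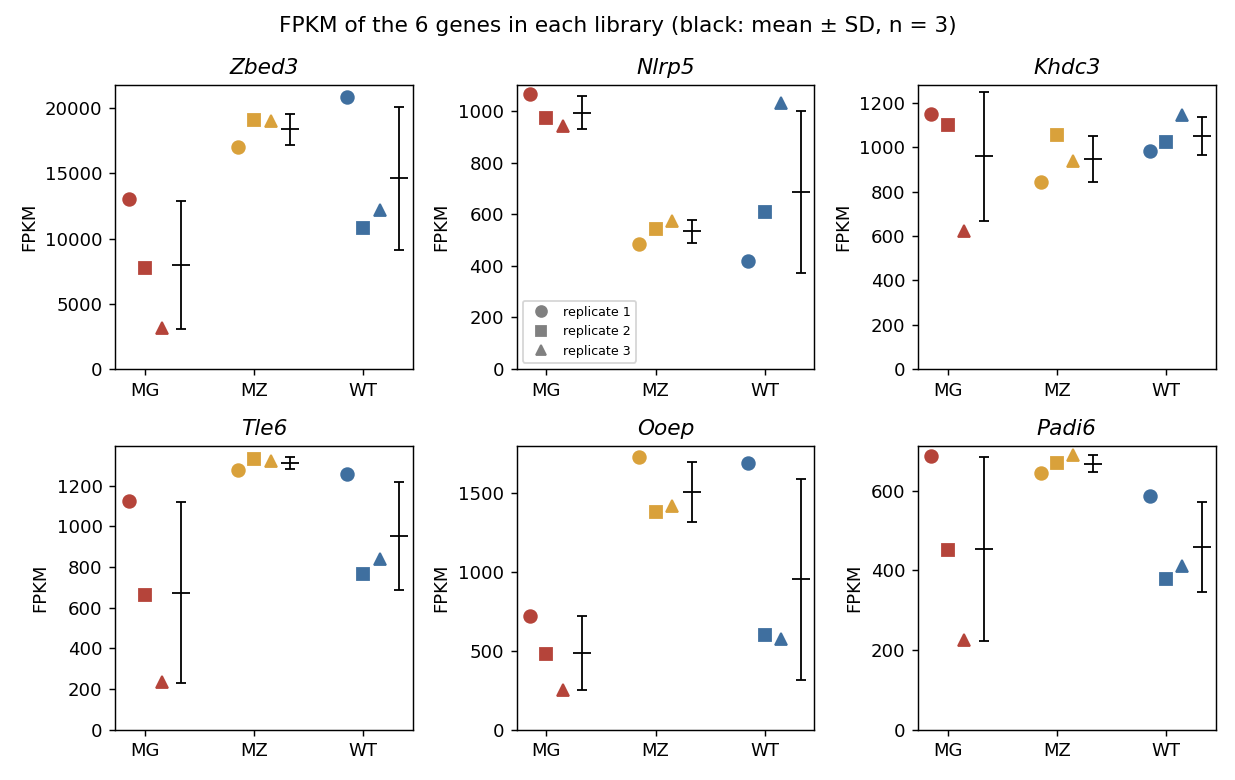
FPKM (linear axes starting at 0, 1 panel a gene) of the 6 genes in each MG, MZ and WT library, with symbols for replicate number and the mean ± SD of 3 libraries in black. The MZ libraries lie close together for every gene, MG 3 is the lowest library for all but Nlrp5, and WT 1 lies apart from the other WT libraries for Ooep and Zbed3.

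Nlrp5, the scaffold of the core and a member of the NLR family, lies at chr7:23385887-23441923 (mm10, plus strand). It had 1067.5, 974 and 944 FPKM in MG libraries, 483, 542 and 574 in MZ libraries, and 418, 608 and 1033 in WT libraries. Every MG library was above every MZ library, and the WT libraries spanned nearly the whole range. The MG mean was 995 ± 65, the MZ mean 533 ± 46 and the WT mean 687 ± 315 FPKM (SD, n = 3 each). For MG against MZ the log2 fold change was 0.90 with a standard error of 0.27 and a 95% interval of 0.298 to 1.501 (limma adjusted p = 0.123). For MG against WT it was 0.63, with an interval of 0.03 to 1.23 (limma adjusted p = 0.262). The MZ against WT value was -0.27, with an interval of -0.87 to 0.33 (limma adjusted p = 0.895). Reads may be shared with the pseudogene Nlrp5-ps, which matches it at 97.8% over 688 bp and had 7.72 to 24.5 FPKM.

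Ooep encodes a small protein with a KH-like domain that binds NLRP5 and TLE6, and lies at chr9:78376901-78378588 (minus strand). It had 719.6, 481 and 250.1 FPKM in MG libraries, 1726, 1378 and 1418 in MZ libraries, and 1689.7, 598 and 574 in WT libraries. All MG libraries were below all MZ libraries, whereas the WT group held 1 library at the MZ level and 2 within the MG range. The means were 483 ± 235 FPKM in MG, 1507 ± 190 in MZ and 954 ± 637 in WT (SD, n = 3 each). For MG against MZ the log2 fold change was -1.76 with a standard error of 0.43 and an interval of -2.72 to -0.80, the widest separation of the 6 genes, and limma's adjusted p was 0.0844. For MG against WT it was -0.91, with an interval of -1.87 to 0.04 (limma adjusted p = 0.307). The MZ against WT value was 0.85, with an interval of -0.11 to 1.80 (limma adjusted p = 0.789).

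Tle6, a relative of the Groucho co-repressors that completes the core, lies at chr10:81590903-81600900 (minus strand). It had 1128, 661 and 235 FPKM in MG libraries, 1278, 1334 and 1324 in MZ libraries, and 1257, 766 and 838 in WT libraries. Every MZ library lay above every MG library and above every WT library, and MG and WT overlapped. The means were 675 ± 446 FPKM in MG, 1312 ± 30 in MZ and 954 ± 265 in WT (SD, n = 3 each). MG against MZ gave a log2 fold change of -1.23, with a standard error of 0.44 and an interval of -2.20 to -0.25 (limma adjusted p = 0.179). It was -0.73 for MG against WT, with an interval of -1.71 to 0.24 (limma adjusted p = 0.422). MZ against WT gave 0.49, with an interval of -0.48 to 1.47 (limma adjusted p = 0.893).

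Khdc3, a KH-domain protein that in mice is needed for faithful chromosome segregation in the cleaving embryo, lies at chr9:73102396-73104443 (plus strand). It had 1153, 1101 and 625 FPKM in MG libraries, 846, 1054 and 939.6 in MZ libraries, and 982, 1024 and 1146 in WT libraries. The 3 groups overlapped, and MG 3 was the single low library. The means were 959 ± 291 FPKM in MG, 946 ± 104 in MZ and 1051 ± 86 in WT (SD, n = 3 each). The log2 fold changes were -0.03 for MG against MZ, with an interval of -0.54 to 0.49, -0.18 for MG against WT, with an interval of -0.69 to 0.33, and -0.15 for MZ against WT, with an interval of -0.67 to 0.36. Limma's adjusted p was 0.977, 0.731 and 0.926 in that order. Its sequence matches the annotated overlapping transcript Gm20509 at 98.3% over 361 bp.

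Zbed3, a BED-type zinc finger protein that binds Axin and joins the complex in the mouse egg, lies at chr13:95323603-95337842 (plus strand). It had 13019, 7760.05 and 3162 FPKM in MG libraries, 17042, 19140.5 and 18994 in MZ libraries, and 20902, 10789 and 12166 in WT libraries. All MG libraries were below all MZ libraries, and WT overlapped both. By group mean its FPKM was the third highest of all genes in MG, the first in MZ and the second in WT. The means were 7980.3 ± 4932 FPKM in MG, 18392 ± 1172 in MZ and 14619 ± 5485 in WT (SD, n = 3 each). MG against MZ gave a log2 fold change of -1.43, with a standard error of 0.44 and an interval of -2.39 to -0.46 (limma adjusted p = 0.126). It was -1.03 for MG against WT, with an interval of -1.998 to -0.069 (limma adjusted p = 0.253). MZ against WT gave 0.39, with an interval of -0.57 to 1.36 (limma adjusted p = 0.901). The small nucleolar RNA Snora47, whose row overlaps it, was listed at 0 in every library.

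Padi6, a member of the peptidylarginine deiminase family that is required in mice for the cytoplasmic lattices of the egg, lies at chr4:140727353-140742643 (minus strand). It had 686, 450.4 and 225 FPKM in MG libraries, 646, 671 and 689 in MZ libraries, and 587, 378 and 411 in WT libraries. Every MZ library was above every WT library, while MG 1 lay within the MZ range and MG 3 below all others. The means were 454 ± 231 FPKM in MG, 668 ± 22 in MZ and 459 ± 112 in WT (SD, n = 3 each). MG against MZ gave a log2 fold change of -0.70, with an interval of -1.44 to 0.04 (limma adjusted p = 0.309). MG against WT gave -0.13, with an interval of -0.87 to 0.61 (limma adjusted p = 0.883). For MZ against WT it was 0.57, with an interval of -0.17 to 1.31 (limma adjusted p = 0.817).

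Seen as a group, 5 of the 6 genes had a log2 fold change below 0 in MG against MZ, Khdc3 among them at -0.03, with a median of -0.96 beside 0.04 over all genes tested. Here and below the median of all genes tested spans every level, and none was computed for genes at similar levels. MG 3 was the lowest library for 17.8% of all genes tested, but for 56.0% of those with a mean of at least 100 FPKM. With the same FPKM sum in each library Khdc3 lay above 0 (0.41), near the median of all genes (0.39). Without MG replicate 3 the median of the 6 genes was -0.43. Of the 12 oocyte markers 11 also had a log2 fold change below 0 in MG against MZ, with a median of -0.65, and 8 were lower in all MG than in all MZ libraries; 0 of the 12 passed limma's adjusted threshold. Those markers moved with the scaling too: 8 of the 12 were below 0 in MG against MZ with the same FPKM sum in each library, and 6 of the 12 with quantile normalization. In MG against WT all 12 were below 0 as deposited, with a median of -0.42, but 7 with the same FPKM sum and 5 with quantile normalization. The part of the markers in the results for the 6 genes was not tested. None of the 6 passed limma's adjusted threshold of 0.05, which 0.13% of all genes passed. At an unadjusted limma p under 0.05 there were 4 of the 6 (Ooep, Nlrp5, Zbed3 and Tle6), against 17.6% of all genes. The libraries of MG and MZ did not overlap for 3 genes that were lower in MG, against 12.3% of all genes, and for 1 that was higher in MG, against 12.8%. In the authors' deposited table, 4 of the 6 were lower in MG than in MZ at q under 0.05, against 6.21% of all genes, and Nlrp5 was higher in MG, against 2.83%. The fold changes of the authors' deposited table run MZ over MG, and there they were 1.66 for Ooep, 1.22 for Zbed3 and 0.98 for Tle6, each with q = 0.00064. In the same authors' deposited table Padi6 had 0.57 (q = 0.039), Nlrp5 -0.89 (q = 0.0031) and Khdc3 -0.005 (q = 0.985). The 2 sources thus differ on these calls: Cuffdiff, per the design text, gave the deposited q, and limma on the values of single libraries gave no call.

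The MG against MZ calls also moved with the fit. With only MG and MZ libraries fitted, Nlrp5 passed limma's test (adjusted p = 0.0474), and without WT replicate 1 Ooep did (adjusted p = 0.0313). Without MG replicate 1, Ooep (adjusted p = 0.0448), Tle6 (adjusted p = 0.0484) and Zbed3 (adjusted p = 0.0442) passed limma's test. Calls rose for other genes too: of 10801 genes tested, limma called 14 in the main fit and 73 with only MG and MZ fitted. It called 213 without WT replicate 1 and 210 without MG replicate 1. Over all alternatives limma's adjusted p ranged over 0.0287 to 0.241 for Ooep, 0.0474 to 0.312 for Nlrp5, 0.0442 to 0.278 for Zbed3 and 0.0484 to 0.480 for Tle6, with the sign of each fold change the same throughout. That sign could not turn under other filters, variance estimates, the 2-group fit, the replicate block or without a WT library.

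For MG against WT, which asks what the early deletion did, 5 of the 6 log2 fold changes were below 0, with a median of -0.46 beside 0.04 over all genes tested, and 0 passed limma's adjusted threshold, against 0.343% of all genes. At an unadjusted limma p under 0.05 there were 2, Zbed3 and Nlrp5, against 17.7% of all genes. The groups overlapped for all 6 genes, while 21.5% of all genes had groups that did not overlap. In the authors' deposited table Ooep was lower in MG, with a log2 fold change of -0.999 (q = 0.012), against 3.05% of all genes, and the other 5 had q of 0.226 or more. The median moved with single libraries: it was -0.003 without MG replicate 3 and -0.87 without MG replicate 1. Scaled so that every library had the same FPKM sum, the median of all genes was 0.36, and Khdc3 (0.21) and Padi6 (0.26) lay above 0 but below that median; Nlrp5 then had 1.02 (limma adjusted p = 0.0928).

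For MZ against WT, which asks the same of the later deletion, 4 log2 fold changes were above 0 and 2 below, with a median of 0.44 beside 0.01 over all genes tested. That median was 0.70 without WT replicate 1 and 0.28 without WT replicate 2. None passed limma's adjusted threshold, against 0.037% of all genes, and 0 of the 6 had an unadjusted limma p under 0.05, against 6.3%. The fit pools each gene's spread over the 3 groups, so these intervals hold the MG spread too. For Tle6 the SD of log2(FPKM + 1) was 1.15 in MG, 0.03 in MZ and 0.38 in WT. With only MZ and WT libraries fitted, 0 of the 6 passed limma's adjusted threshold. Tle6 and Padi6 were higher in all MZ than in all WT libraries, against 5.67% of all genes with that order. In the authors' deposited table none had q under 0.05, against 0.787% of all genes, and the lowest was that of Ooep (log2 fold change 0.66, q = 0.055). Both deletions were set against the same 3 WT libraries, so the 2 comparisons are not independent of each other.

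**Figure D2:**
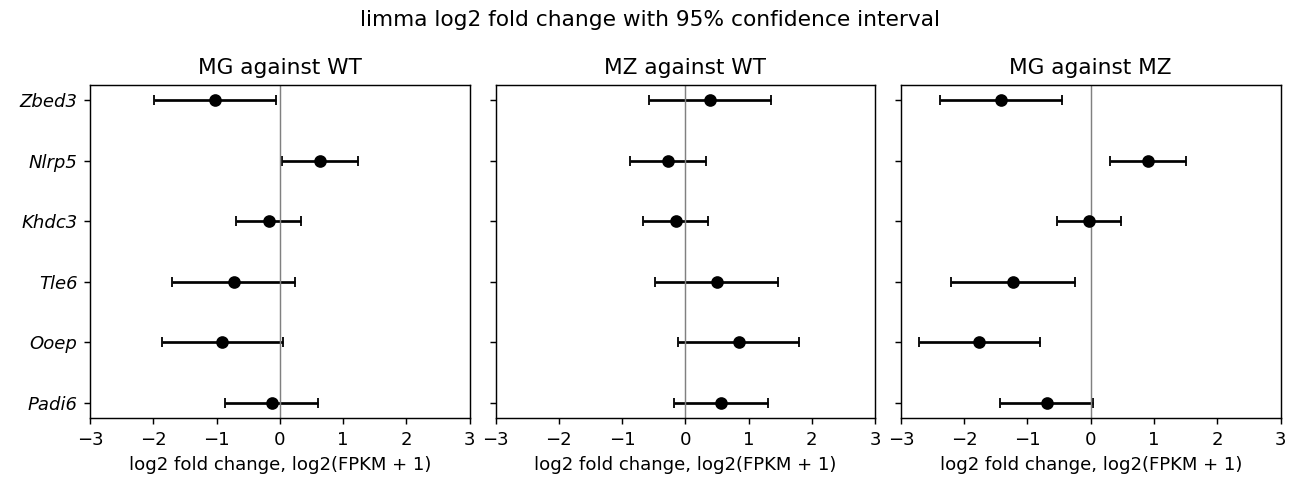
Log2 fold change from limma on log2(FPKM + 1) with its 95% confidence interval for the 6 genes (rows) in 3 panels, 1 for each pair of groups. The MG against MZ intervals of Ooep, Zbed3 and Tle6 lie below 0 and that of Nlrp5 above 0, while all 6 intervals of MZ against WT include 0. The spread behind each interval is pooled over all 3 groups.

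A ratio of 2 genes within a library does not depend on how the library was scaled. Zbed3 over Nlrp5 was 12.2, 7.97 and 3.35 in MG libraries, 35.3, 35.3 and 33.1 in MZ libraries, and 49.99, 17.7 and 11.8 in WT libraries. Ooep over Nlrp5 was 0.674, 0.494 and 0.265 in MG libraries, 3.57, 2.54 and 2.47 in MZ libraries, and 4.04, 0.983 and 0.555 in WT libraries. In both ratios MG lay below MZ without overlap, and WT ran across both. Tle6 over Nlrp5 averaged 0.66 ± 0.40 in MG, 2.47 ± 0.17 in MZ and 1.69 ± 1.16 in WT, and Padi6 over Nlrp5 averaged 0.448 ± 0.203 in MG, 1.26 ± 0.07 in MZ and 0.808 ± 0.528 in WT (SD, n = 3 each). Khdc3 over Nlrp5 averaged 0.957 ± 0.257 in MG, 1.78 ± 0.16 in MZ and 1.71 ± 0.62 in WT (SD, n = 3 each). All 5 ratios were lower in every MG than in every MZ library. They share Nlrp5 as denominator, and 50.3% of all genes tested had a ratio to Nlrp5 that was lower in MG without overlap. For MG against WT, 0 of the 5 ratios had groups that did not overlap, against 23.2% of all genes, and for MZ against WT 0 of the 5, against 6.45%.

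**Figure D3:**
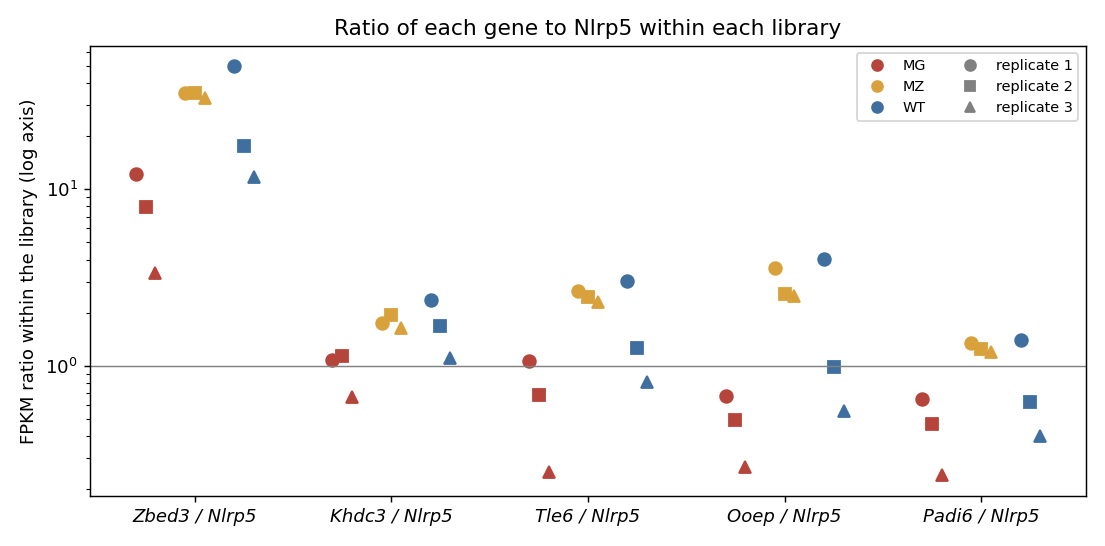
FPKM of Zbed3, Khdc3, Tle6, Ooep and Padi6 divided by that of Nlrp5 in the same library (log axis), by group and replicate. Each ratio is lower in the 3 MG libraries than in the 3 MZ libraries, and the WT libraries spread over both, with WT 1 highest.

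The order of the group means also differed between the groups. In MG it ran Zbed3, Nlrp5, Khdc3, Tle6, Ooep, Padi6, and only Zbed3 was separate from the next gene in its range over libraries. In MZ it ran Zbed3, Ooep, Tle6, Khdc3, Padi6, Nlrp5, and all 5 neighbouring pairs were separate. In WT it ran Zbed3, Khdc3, Ooep, Tle6, Nlrp5, Padi6, where Ooep and Tle6 had the same mean of 954 FPKM and only Zbed3 was separate from its neighbour. By group mean Nlrp5 was thus the second of the 6 in MG, the last in MZ and the fifth in WT. Single MG and WT libraries did not all keep that place. In MG, Nlrp5 was above Khdc3 in 1 of 3 libraries. Its level was below that of Padi6 in WT 1, but above those of Ooep and Tle6 in WT 3.

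The 6 genes together made up 3.21, 2.22 and 1.27% of the FPKM sum of MG libraries, 3.25, 3.57 and 3.64% of MZ libraries, and 3.60, 2.42 and 2.47% of WT libraries. Zbed3 carried most of this, with 66.4 ± 7.7% of the sum of the 6 genes in MG, 78.7 ± 1.1% in MZ and 77.4 ± 3.0% in WT (SD, n = 3 each). Without Zbed3 the other 5 genes made up 0.858, 0.713 and 0.532% in MG libraries, 0.735, 0.738 and 0.752% in MZ libraries, and 0.687, 0.577 and 0.612% in WT libraries. For these 5 the MG libraries lay on both sides of the MZ and WT libraries.

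The 6 genes differed in how much they varied within a group. The median of their SDs of log2(FPKM + 1) over replicates was 0.79 in MG, 0.11 in MZ and 0.44 in WT. For the 847 genes with a mean of at least 100 FPKM the median SD was 0.28 in MG, 0.12 in MZ and 0.27 in WT. In MG, 7 of those 847 genes had a larger SD than Tle6 and 16 a larger one than Zbed3, whereas 762 had a larger one than Nlrp5. In WT, 8 genes had a larger SD than Ooep and 51 a larger one than Nlrp5, against 750 for Khdc3. MG 3 was the lowest of all 9 libraries for 5 of the 6 genes, for 17.8% of all genes tested and for 56.0% of the 847. The exception, Nlrp5, was lowest in WT 1.

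Genes of partner proteins were described from a list of 10, which holds proteins found with the complex or with the cytoplasmic lattices. All 10 were tested and 0 passed limma's adjusted threshold in any comparison. Their log2 fold changes were below 0 for 10 of 10 in MG against MZ (median -0.30), for 6 of 10 in MG against WT (median -0.29) and for 2 of 10 in MZ against WT (median 0.24). The medians of all genes tested in these comparisons were 0.04, 0.04 and 0.01. With every library scaled to the same FPKM sum the median of all genes in MG against MZ was 0.39, and 3 of the 10 partner genes were then below 0, against 5 of 10 with quantile normalization. In MG against WT these scalings put 2 and 3 of the 10 below 0. The scalings of the marker and partner lists were added after the data had been seen. The 4 with the highest mean are named. Skp1a, a subunit of SCF ubiquitin ligases, had 2844 ± 818 FPKM in MG, 3307 ± 282 in MZ and 3536 ± 536 in WT. Nlrp14, an oocyte NLR family gene, had 2448 ± 1194 FPKM in MG, 3127 ± 245 in MZ and 2737 ± 508 in WT. Ube2d3, a ubiquitin-conjugating enzyme, had 1670.0 ± 681 FPKM in MG, 2057 ± 91 in MZ and 1951 ± 113 in WT. Cfl1, the actin-severing protein cofilin, had 989 ± 407 FPKM in MG, 1833 ± 44 in MZ and 1577 ± 544 in WT (SD, n = 3 each).

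Relatives of the members by protein family showed which family gene the oocyte RNA held. Of 16 relatives 9 were tested, and 0 passed limma's adjusted threshold in any comparison, with medians of 0.02 in MG against MZ, 0.28 in MG against WT and 0.28 in MZ against WT. Among KH-domain relatives Khdc1b had 2105 ± 1044 FPKM in MG, 3028 ± 68 in MZ and 2519 ± 406 in WT, and Dppa5a had 1086 ± 218 in MG, 867 ± 21 in MZ and 671 ± 52 in WT (SD, n = 3 each). Khdc1a had 99.97 ± 29.2 FPKM in MG, 159 ± 20 in MZ and 124 ± 37 in WT, and Khdc1c had 36.1 ± 23.5 in MG, 66.0 ± 15.6 in MZ and 52.9 ± 31.9 in WT (SD, n = 3 each). The Khdc1 genes are close copies of each other, so their reads may be split unevenly. Padi6 was the only deiminase gene tested: Padi1, Padi2, Padi3 and Padi4 did not pass the filter on low values, and Padi3 was listed at 0 in all 9 libraries. Tle6 likewise stood far above its Groucho relatives, of which Aes averaged 8.52 FPKM, Tle4 4.50 and Tle1 2.08 over the 9 libraries, and Tle2 and Tle3 did not pass the filter. Tle4, named after its values were seen, had 10.5, 11.7 and 7.73 FPKM in MG libraries, 0, 2.13 and 3.08 in MZ libraries, and 2.46, 1.05 and 1.86 in WT libraries. All MG libraries were above all others, with log2 fold changes of 2.21 for MG against MZ (limma adjusted p = 0.0818) and 1.99 for MG against WT (limma adjusted p = 0.109). Zbed5, also named after its values were seen, had 28.5, 19.1 and 17.6 FPKM in MG libraries, below all others. Its log2 fold changes were -0.95 for MG against MZ (limma adjusted p = 0.116) and -0.82 against WT (limma adjusted p = 0.174). Of the 9 relatives tested, 1 was higher and 2 lower in MG against MZ without overlap, against 12.8% and 12.3% of all genes. In MG against WT 2 were higher and 1 lower without overlap, against 21.5% of all genes in either direction.

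The profile of the 6 genes, taken as their mean log2(FPKM + 1) in each library, was set against 5686 other genes with a mean of at least 5 FPKM. Among the genes most like it over the 9 libraries were Npm2, a nuclear chaperone of the egg, with Pearson r = 0.996, Khdc1b with 0.993, Tubb6, a beta tubulin, with 0.989, and Zp3, a zona pellucida protein, with 0.989. Npm2 had 433, 300.1 and 136 FPKM in MG libraries, 477, 470.04 and 464 in MZ libraries, and 448, 284 and 374 in WT libraries. Its level was lowest in MG 3 and nearly even over the MZ libraries, as for the mean of the 6 genes. Without MG 3 the r of these 4 genes lay between 0.955 and 0.983. With every library scaled to the same FPKM sum, Khdc1b, Npm2 and Zp3 were again among the first 5 of 5777 genes, with r of 0.987, 0.984 and 0.964. The 9 points share each library's depth and scaling, the genes were picked for a high r, and the values are descriptions with no test.

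**Figure D4:**
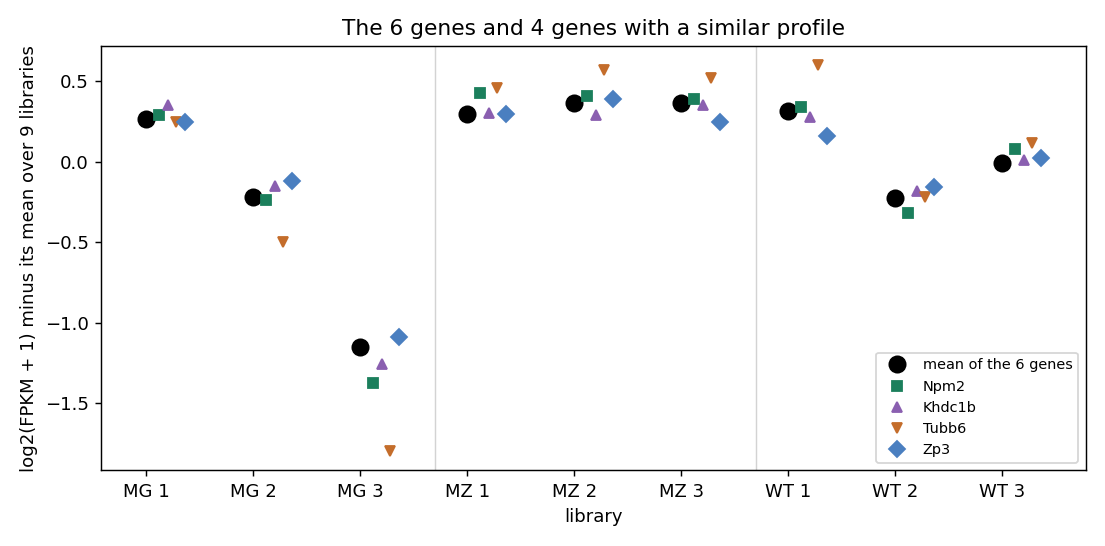
Mean log2(FPKM + 1) of the 6 genes (black) and log2(FPKM + 1) of Npm2, Khdc1b, Tubb6 and Zp3, each minus its own mean over the 9 libraries (vertical axis), by library (horizontal axis, MG, MZ, WT). All are lowest in MG 3 and lie close together in the 3 MZ libraries.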

How the data were processed

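RNA of GV-stage oocytes from 9 mouse libraries (MG, MZ and WT, 3 each) was amplified by Smart-seq2 and sequenced as 150 bp read pairs, per the labels' protocols and the design text. Per the submitters' processing notes, the authors used TopHat2 2.0.13 for alignment to mm10 and Cufflinks 2.2.1 for the deposited FPKM. For each pair of groups the authors also deposited log2 fold changes, p-values and q-values, which per the design text come from Cuffdiff with its default settings. The sources used here do not give how strand was handled.

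Of 24255 rows, 27 with a date in place of a symbol were left out. The test covered genes that reached 1 FPKM in 3 or more of the 9 libraries and used limma 3.58.1 (R 4.3.3, eBayes with trend, 6 residual degrees of freedom) on log2(FPKM + 1), with all 9 libraries in 1 fit, two-sided, with Benjamini-Hochberg adjustment over all genes tested and a threshold of 0.05. Fold changes are on that scale and understate those of low genes. The code of the fit was run on simulated data with the same spread setting in all libraries. Those data held neither unequal spread between groups nor a low library such as MG 3, so the run does not cover these. FPKM hold no counts: depth was estimated from the values of genes at 1 fragment, and covers counting only. Loci are given as deposited (mm10). For Zbed3, Nlrp5 and Khdc3 the locus starts 2 bases before the RefSeq start used for the sequence window. For Tle6, Ooep and Padi6 the locus ends at that start. Whether locus starts are counted from 0 or 1 was not settled. The 6 genes and all lists were chosen with earlier results of these data known. The text names all 6 genes, the listed genes that pass or are among the 4 with the highest mean, and the 5 most similar profiles, of which 1 is not reported here. Marker lists were oocyte, granulosa and cumulus, theca and stroma, and blood and immune. Over 7 theca and stroma markers FPKM summed to 22.6 to 48.4 in MG, 19.3 to 73.3 in MZ and 25.2 to 35.2 in WT libraries, and over 6 blood and immune markers to 26.3 to 138.3 in MG, 19.7 to 169.1 in MZ and 43.2 to 52.9 in WT libraries. Alternatives were other pseudocounts, filters, scalings and variance estimates, fits of 2 groups only, a replicate block, and leaving out each library.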

Additional observations from a re-analysis of the deposited data

Results flagged for a closer look

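For 3 of the 6 genes, every MG library lay on one side of the WT mean and every MZ library on the other. The share of all genes tested with that order was not computed. It requires MG and MZ libraries that do not overlap, as for 12.3% of all genes with MG lower and 12.8% with MG higher. The MG minus MZ difference on the log2(FPKM + 1) scale was -1.43 for Zbed3 (limma adjusted p = 0.126), 0.90 for Nlrp5 (limma adjusted p = 0.123) and -1.76 for Ooep (limma adjusted p = 0.0844). That difference is the test of whether both deletions had unequal effects, since WT cancels from it, and none of the 3 passed the threshold of 0.05.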

How the results depend on the processing

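Each log2 fold change of the 6 genes was recomputed under 20 alternatives, and of 360 values 342 kept their sign and their side of the threshold. Filters, variance estimates, the 2-group fit, the replicate block and leaving out a library of the third group keep every fold change the same. Under those alternatives the sign was fixed in advance and only the adjusted p could move, so the 342 do not measure robustness of sign. In 12 of the 360 values the sign turned, for Khdc3, Padi6 and Nlrp5, and the cause was not tested. With the same FPKM sum in each library, Khdc3 had 0.21 and Padi6 0.26 in MG against WT, and Khdc3 0.41 in MG against MZ. With quantile normalization the values were 0.35 for both genes in MG against WT and 0.60 for Khdc3 in MG against MZ. Leaving out 1 library at a time gave ranges of -0.34 to 0.10 for Khdc3 and -0.50 to 0.30 for Padi6 in MG against WT, -0.57 to 0.077 for Nlrp5 in MZ against WT, and -0.18 to 0.26 for Khdc3 in MG against MZ. The highest value came without MG replicate 3 for Khdc3 and Padi6, and without WT replicate 3 for Nlrp5. The sign also turned for Padi6 in MG against WT without WT replicate 1 (0.06) and for Khdc3 in MG against MZ without MZ replicate 2 (0.05).

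The number of the 6 genes called in MG against MZ was 0, and 1 with only the 2 groups compared. It was 0 to 3 when 1 library was left out. The median of the 6 genes in MG against MZ was -0.38 with quantile normalization, and in MG against WT it was 0.06 with quantile normalization and -0.07 with the same FPKM sum. Set against the FPKM sum of all genes other than the 20 highest, which include Zbed3, the summed FPKM of all 6 genes came to 2.83% in MG, 4.50% in MZ and 3.67% in WT. With the same FPKM sum 2 of the 6 genes changed place in the WT order.

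Of all genes tested, limma called 37 in MG against WT. It called 58 with a pseudocount of 10 FPKM, 17 with no filter, 66 with the same FPKM sum, 21 with quantile normalization, 5 with only the 2 groups and 3 to 32 without 1 library. The split of 20 higher to 17 lower became 61 to 5 with the same FPKM sum, 16 to 5 with quantile normalization and 20 to 10 with upper quartile scaling. In MZ against WT it called 4, and 2 with a pseudocount of 0.1 FPKM, 2 with no filter, 0 with a filter of 5 FPKM, 1 with the same FPKM sum, 1 with quantile normalization, 7 with no variance trend, 1 with a robust variance and 0 to 6 without 1 library. The split of 3 higher to 1 lower became 1 to 0 with the same FPKM sum and with quantile normalization. In MG against MZ it called 14, and 6 with a pseudocount of 0.1 FPKM, 32 with one of 10 FPKM, 9 with no filter, 31 with the same FPKM sum, 9 with no variance trend, 73 with only the 2 groups and 0 to 213 without 1 library. The split of 8 higher to 6 lower became 25 to 6 with the same FPKM sum and 9 to 4 with quantile normalization. It turned towards lower with only the 2 groups (19 to 54), without MG replicate 1 (41 to 169) and without WT replicate 1 (54 to 159).

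The groups share replicate numbers. Over all genes tested, deviations of same-numbered libraries from their group means had correlations of -0.0702 to 0.0731 over 9 pairs. A library correlated best with its own number 9 of 18 times, among 3 libraries of another group each time. For Zbed3, Tle6, Ooep and Padi6 replicate 1 was the highest library in both MG and WT. In MZ it was the lowest for Zbed3, Tle6 and Padi6. For Nlrp5 and Khdc3 replicate 1 was the highest in MG and the lowest in WT. With the replicate number as a block, limma called 13 genes in MG against WT, 0 in MZ against WT and 159 in MG against MZ (33 higher, 126 lower), of which 1 was among the 6 (Ooep, adjusted p = 0.0287). Depth sets the counting error: Tle6 in MG 3, the thinnest of the values of the 6 genes, rests on an estimated 350 fragments.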
